A study of Mus musculus with 6 samples.

Results

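The genes described here are 10 members of the JAK, STAT and SOCS signalling system in peritoneal cavity (PC) B1a cells: the kinases *Jak1* and *Jak3*, the transcription factors *Stat3*, *Stat5a* and *Stat5b*, the feedback inhibitors *Cish*, *Socs1*, *Socs2* and *Socs3*, and the kinase *Pim1*. They were chosen by name, and every non-control probe that the array annotation assigns to one of them was read. This gave 15 probes of the 55681 on the array and 10 genes of the 18252 that could be tested, and all 15 probes were well above background on all 6 arrays.

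RNA of PC B1a cells, sorted by flow cytometry as CD11b+CD5+ B cells, was measured on 1-colour Agilent arrays. The knockout group was 3 samples of p40-/-IL-2Rα-/- mice (p40-/- CD25-/- in the labels) and the control group 3 samples of p40-/-IL-2Rα+/- mice (p40-/- CD25+/-). All mice were 7-week-old females on a C57Bl/6 background and all lacked p40, the shared subunit of IL-12 and IL-23, so that neither group was wild type and the controls still carried 1 disrupted copy of *Il2ra*. Both alleles were germline deletions, absent from all cells and not from B cells alone, and each sample pooled at least 3 mice. The 2 genotypes were compared to find which transcripts of B1a cells differ in this model of autoimmune cholangitis. Since nothing ties a sample to a separate sort, p-values measure the spread between these samples. In sorted bulk RNA, fewer cells of a type and less RNA per cell cannot be told apart.

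IL-2 binds a receptor made of the α chain (CD25, from *Il2ra*), the β chain and the common γ chain. JAK1 sits on the β chain and JAK3 on the γ chain, and both phosphorylate STAT proteins, mainly STAT5, which then enter the nucleus and switch on target genes. *Cish* and *Socs2* are classical STAT5 target genes whose proteins damp cytokine signalling, so their transcripts are widely read as a trace of STAT5 activity. B1a cells are self-renewing innate-like B cells of the body cavities, and IL-5, which also signals through JAK and STAT5, is among the cytokines that maintain them.

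The knockout arrays were dimmer. The 75th percentile of the signal was 264, 252 and 272 on control 1, 2 and 3 and 131, 66.5 and 162 on knockout 1, 2 and 3, and 47.2 to 50.6% of spots were well above background on the control arrays against 39.7 to 45.9% on the knockout arrays. Levels below are therefore log2 signals relative to the array's own 75th percentile, and a difference is the knockout mean minus the control mean. A level of 0 is a spot at that percentile, and levels of different probes are not compared. All 12 B cell and B1a markers were well above background on all arrays. Their summed level was 1425 to 1478 times the 75th percentile in control and 1482 to 1666 times in knockout, without overlap, and 4 of the 12 were higher in knockout without overlap. Of 12 T cell markers, 8 could be tested, and the summed level of the whole list was 9.26 to 15.5 times the 75th percentile on the control arrays and 14.5 to 17.0 times on the knockout arrays. Of the 8, 2 were higher and 0 lower in knockout without overlap, and the median difference was 0.65. *Lck* had the highest signal of the list, with levels of 3.25, 2.04 and 2.41 in control and 3.36, 2.62 and 3.16 in knockout. *Cd3g* was lower on average in knockout, with 1.05, 0.75 and 0.61 in control and 0.78, 0.13 and 0.64 in knockout. *Trat1* was not well above background on any array. *Cd8a* and *Cd8b1* were so on no control array and on 1 knockout array each, with their highest levels, -3.06 and -1.65, in knockout 3. Of 13 macrophage marker names, 12 were on the array and 11 could be tested, with a summed level of the list of 38.5 to 86.3 in control and 30.9 to 55.3 in knockout. *Lyz1* had the highest signal of the list. Of the 11, 0 were higher and 1 was lower in knockout without overlap. The 5 plasma cell markers summed to 68.6 to 75.6 in control and 46.6 to 59.5 in knockout. The part of these cells in the results was not tested.

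*Il2ra*, the gene disrupted in the knockout, had levels of 1.62, 1.13 and 1.35 in control 1, 2 and 3 and of -0.31, -0.59 and 0.86 in knockout 1, 2 and 3. Knockout 1 and 2 were far below the controls, and knockout 3 was below all of them but nearer to them than to the other knockout arrays. The difference was -1.38 on the log2 scale (SE 0.37, limma adjusted P = 0.122), and the probe was well above background on all 3 knockout arrays. Whether this probe lies in the deleted part of the gene is not given in the sources used here, so it is no full check of the labels.

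The probe sequences of the genes that the results turn on follow, 5′ to 3′ in lower case as the array design gives them. The *Pim1* probe, 1 of the 3 *Socs2* probes, and the second probe of *Jak3*, which did not give the same value as the first, are shown whole at 60 bases. For the probes of *Cish*, *Stat5b*, *Jak3* and the probe of *Socs2* that was printed in 10 spots, the first 30 bases are given. Coordinates are mm9, and the exon or untranslated region under each probe is not given in the sources used here.
Pim1 A_52_P530291, chr17:29630740-29630799, plus strand: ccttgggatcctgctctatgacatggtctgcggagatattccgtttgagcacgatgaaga
Socs2 A_55_P1992838, whole: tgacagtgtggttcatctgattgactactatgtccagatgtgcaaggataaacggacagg
Jak3 A_55_P2010912, chr8:74210801-74210860, plus strand: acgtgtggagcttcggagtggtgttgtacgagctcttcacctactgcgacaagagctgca
Cish A_51_P470715, chr9:107204196-107204255, plus strand, first 30 bases: actttagaaaacaagtgttagaacacaaga
Stat5b A_55_P2031043, chr11:100642045-100642104, minus strand, first 30 bases: tgaggcagccacaaaattgtgtattttatg
Jak3 A_51_P355360, chr8:74214085-74214144, plus strand, first 30 bases: tggctagagcagagacatctcctgcacgcg
Socs2 A_51_P107362, chr10:94875066-94875125, minus strand, first 30 bases: aggtgtgaagatgtagctaggtattttaaa

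None of the 10 genes passed both of the study's thresholds, a 2-fold difference with an unadjusted P of at most 0.05, which 3.52% of all tested genes passed. None had a limma adjusted P under 0.05 either, as 0.0384% of all genes did. At an unadjusted P under 0.05, *Pim1* was higher in knockout, where 11.6% of all genes were called higher, and *Cish* and *Socs2* were lower, where 13.6% of all genes were called lower. Those 3 of 10 genes compare with 25.1% of all genes in either direction. The count ran from 0 to 5 over the alternatives of processing and of arrays left out. The knockout and control values did not overlap for *Pim1* and *Socs3*, both higher in knockout, against 14.7% of all genes, nor for *Stat5b*, lower in knockout, against 21.6% of all genes. These calls also moved with the processing: *Stat5b* overlapped after quantile normalization with or without normexp, a correction of the background, on a median scale and in the deposited values, and *Pim1* and *Socs3* overlapped with normexp and the 75th percentile. In all, 4 genes were higher and 6 lower, with a median difference of -0.12 on the log2 scale, and the median over all tested genes was also -0.12. As a group, the 10 genes thus differed between genotypes about as often as any genes did. The values of single genes are given next, by their role.

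**Figure D1:**
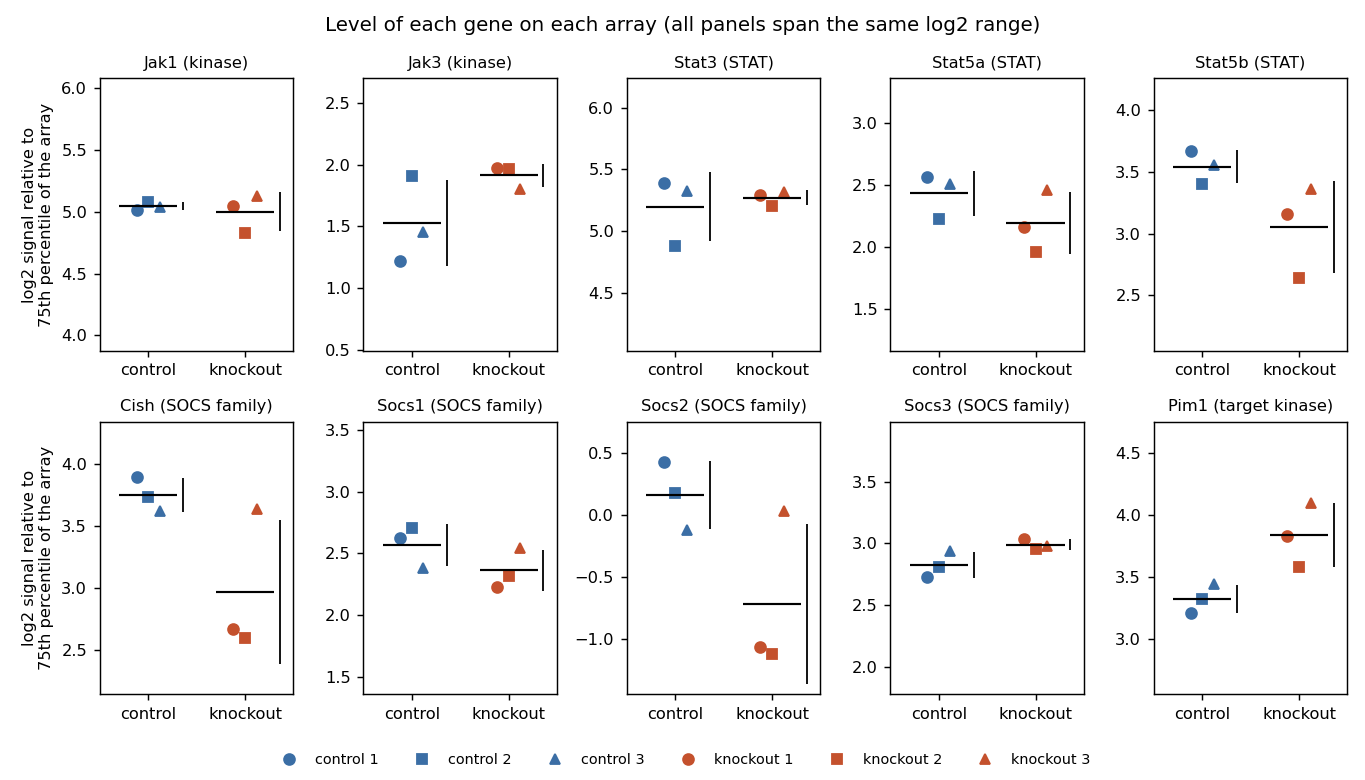
Level of each gene on each array, as log2 signal relative to the 75th percentile of that array, for 3 control (blue) and 3 knockout (red) arrays; the horizontal line is the group mean and the vertical line its SD. *Cish* and *Socs2* of knockout 1 and 2 lie below all controls while knockout 3 lies among them, and the 3 knockout arrays of *Pim1* lie above all controls.

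*Jak1*, the kinase shared by most cytokine receptors of this class, had levels of 5.02, 5.08 and 5.04 in control and 5.05, 4.83 and 5.13 in knockout. The groups overlapped, and the difference was -0.043 on the log2 scale (95% interval -0.38 to 0.29, limma adjusted P = 0.854). The direction of so small a difference turned with the scaling between arrays, and it was 0.15 after quantile normalization.

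*Jak3*, the partner of the common γ chain, was read by 2 probes whose starts lie 3284 bases apart. By the brighter one it had levels of 1.22, 1.91 and 1.45 in control and 1.97, 1.96 and 1.80 in knockout. Knockout 1 and 2 were above all controls and knockout 3 below control 2, and the difference was 0.39 (SE 0.20, limma adjusted P = 0.256). By the second probe it had levels of 0.44, 2.20 and 0.95 in control and 1.46, 1.05 and 0.71 in knockout. All knockout values of this probe lay within the range of the controls, and its difference of -0.12 (SE 0.44, limma adjusted P = 0.871 over all probes) had the opposite sign. The direction of *Jak3* therefore rested on the probe.

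*Stat3*, which carries the signals of IL-6, IL-10 and IL-21, had levels of 5.39, 4.88 and 5.33 in control and 5.29, 5.20 and 5.32 in knockout by a probe printed in 10 spots. Within an array these spots had an SD of 0.018 to 0.041, against an SD between samples of 0.279 in control, where control 2 stood apart, and 0.061 in knockout. The difference was 0.072 (SE 0.17, limma adjusted P = 0.800), and without control 2, the lowest array, it was -0.088. By the second, dimmer probe, whose start lies 10348 bases away, the levels were -0.29, -0.60 and 0.06 in control and 0.08, 0.09 and 0.65 in knockout. Here every knockout array was above every control array, with a difference of 0.55 (SE 0.24, limma adjusted P = 0.206 over all probes). Both probes gave a positive difference, but of unequal size.

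*Stat5a* and *Stat5b*, 2 closely related STAT5 proteins encoded beside each other and beside *Stat3* on chromosome 11, were both lower in knockout on average. *Stat5b* had levels of 3.67, 3.40 and 3.55 in control and 3.16, 2.64 and 3.36 in knockout. The groups did not overlap, although knockout 3 lay just below the lowest control, and the difference was -0.49 (SE 0.21, 95% interval -0.98 to 0.01, limma adjusted P = 0.202). A second *Stat5b* probe, 142 bases away, had levels of 3.12, 2.96 and 3.11 in control and 2.91, 2.38 and 2.81 in knockout. It gave the same order of the genotypes with no overlap and a difference of -0.36 (SE 0.18, limma adjusted P = 0.250 over all probes). Neighbouring probes read the same transcripts and are no second measurement of the samples.

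*Stat5a* had levels of 2.56, 2.22 and 2.51 in control and 2.16, 1.96 and 2.46 in knockout. Knockout 1 and 2 were below all controls, and knockout 3 was among them. The difference was -0.24 (SE 0.18, 95% interval -0.67 to 0.19, limma adjusted P = 0.403). With 1 array left out it ran from -0.37 without knockout 3 to -0.12 without knockout 2.

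*Cish*, a STAT5-induced inhibitor that acts on STAT5-activating receptors, had levels of 3.89, 3.73 and 3.62 in control and 2.67, 2.59 and 3.64 in knockout. Knockout 1 and 2 were about 1 log2 unit below the lowest control, and knockout 3 was above that control. The difference was -0.78 (SE 0.29, 95% interval -1.46 to -0.11), a 1.72-fold lower level (limma adjusted P = 0.164). Without knockout 3 the difference was -1.12, a 2.17-fold lower level past both of the study's thresholds, with a limma adjusted P = 0.060. Without knockout 1 it was -0.63, without knockout 2 -0.60 and without control 1 -0.71, and in each case, as without control 2, after quantile normalization and in the deposited values, the unadjusted P was no longer under 0.05.

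*Socs2*, a STAT5-induced inhibitor best known for limiting growth hormone signalling, had the lowest difference of the 10 genes. By the probe printed in 10 spots, its levels were 0.43, 0.17 and -0.12 in control and -1.07, -1.12 and 0.03 in knockout. Again knockout 1 and 2 were far below all controls and knockout 3 was among them. The difference was -0.88 (SE 0.33, 95% interval -1.65 to -0.11), a 1.84-fold lower level (limma adjusted P = 0.168). The SD between spots of 1 array was 0.049 to 0.195 and was highest on knockout 2, the dimmest array.

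The other *Socs2* probes, 121 and 402 bases from the first, gave the same order of arrays against the controls. By the nearer one the levels were -0.43, -0.45 and -0.79 in control and -1.73, -2.04 and -0.66 in knockout, with a difference of -0.92 (SE 0.35, limma adjusted P = 0.174 over all probes). By the farther one, the whole probe printed above, they were -0.73, -0.97 and -1.38 in control and -2.56, -2.27 and -1.13 in knockout, with a difference of -0.96 (SE 0.38, limma adjusted P = 0.181 over all probes). On all 3 probes knockout 3 lay within the range of the controls. With normexp and the 75th percentile, the differences of the nearer and farther probes were smaller, at -0.31 and -0.16. Without knockout 3 the difference of the first probe was -1.26, 2.39-fold lower, past both of the study's thresholds, with a limma adjusted P = 0.064. Without control 3, the lowest control, it was -1.02, which also passed them. Without knockout 1 it was -0.71, without knockout 2 -0.68 and without control 1 -0.75, and there, as without control 2 and with the replicate number as a block, the unadjusted P was no longer under 0.05.

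**Figure D2:**
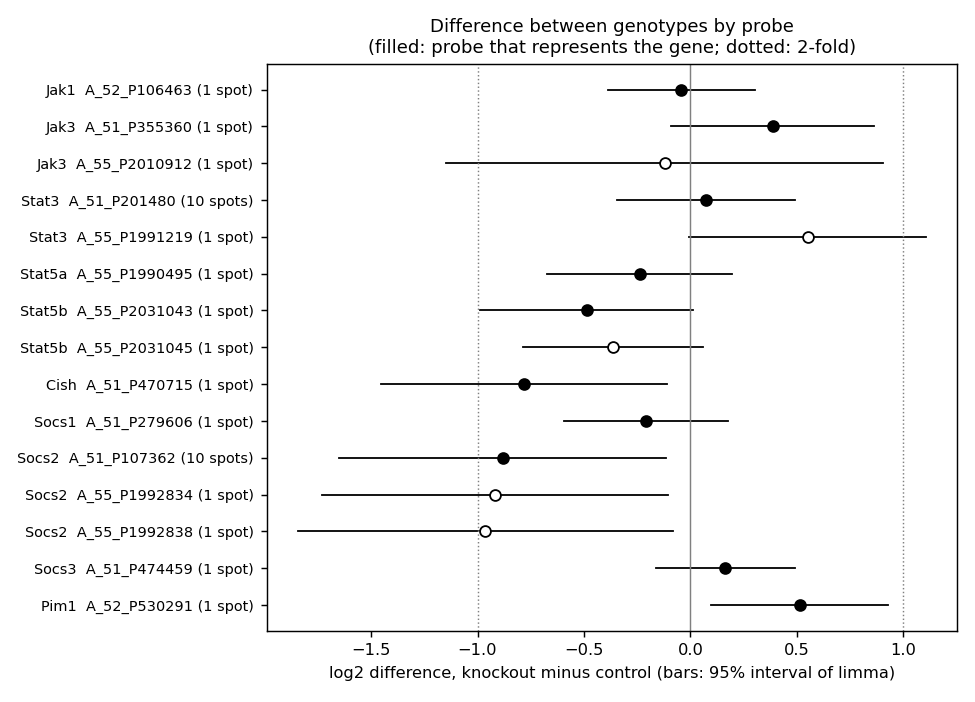
Log2 difference between genotypes (knockout minus control) for each of the 15 probes, with the 95% interval of limma; filled points are the probes that stand for their gene. The 3 *Socs2* probes and the *Cish* probe lie to the left of 0, between -0.96 and -0.78, the probe of *Pim1* lies to the right at 0.51, and the 2 *Jak3* probes lie on opposite sides.

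*Socs1*, the inhibitor of JAK kinases induced above all by interferons, had levels of 2.62, 2.70 and 2.38 in control and 2.23, 2.32 and 2.54 in knockout. Knockout 1 and 2 were below all controls and knockout 3 was among them. The difference was -0.21 (SE 0.16, 95% interval -0.58 to 0.17, limma adjusted P = 0.408).

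*Socs3*, the inhibitor of gp130 receptors and a STAT3 target gene, had levels of 2.73, 2.81 and 2.94 in control and 3.04, 2.95 and 2.98 in knockout. All 3 knockout arrays were above all controls by a narrow margin. The difference was 0.16 (SE 0.13, 95% interval -0.15 to 0.48, limma adjusted P = 0.433), and it was -0.12 with normexp and the 75th percentile but 0.33 with normexp and quantile normalization. The 2 inhibitors best known as STAT5 targets and *Socs3* thus lay on opposite sides of 0, a contrast that was not itself tested.

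*Pim1*, a serine/threonine kinase that promotes survival and is a target of both STAT3 and STAT5, had the highest difference of the 10 genes. It had levels of 3.21, 3.32 and 3.44 in control and 3.83, 3.58 and 4.10 in knockout. Every knockout array was above every control array, and here knockout 3 was the array farthest from the controls. The difference was 0.51 (SE 0.17, 95% interval 0.10 to 0.92), a 1.43-fold higher level (limma adjusted P = 0.150). With normexp and the 75th percentile it was 0.22, where the unadjusted P was no longer under 0.05, nor was it without control 1, control 2 or knockout 3. *Pim1* and *Cish*, both known STAT5 target genes, differed in opposite directions, and no single direction described the known targets among the 10 genes.

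The knockout arrays did not behave alike. Relative to the control mean, *Cish* was -1.08, -1.15 and -0.11 in knockout 1, 2 and 3, and *Socs2* was -1.23, -1.28 and -0.13. *Il2ra* had the same order of arrays, with -1.67, -1.96 and -0.51. *Stat5b* stood at -0.38, -0.90 and -0.18, and *Pim1* at 0.51, 0.26 and 0.77. In *Cish*, *Socs1*, *Socs2* and *Stat5a*, knockout 1 and 2 were below every control array and knockout 3 was not, a pattern looked for after the values had been seen. It held for these 4 of the 10 genes and for 10.7% of all tested genes. With knockout 1 as the array that departs, it held for none of the 10 and 5.81% of all genes, and with knockout 2 for none and 4.01%. Knockout 3 was also the brightest of the knockout arrays, with a 75th percentile of 162. The plasma cell markers summed to 46.6, 48.4 and 59.5 times the 75th percentile in knockout 1, 2 and 3. The macrophage markers summed to 30.9, 55.3 and 35.0 times in knockout 1, 2 and 3, with knockout 2 the highest of them and within the control range of 38.5 to 86.3. The part of array brightness, of the remaining *Il2ra* signal and of these other cells in the pattern was not tested.

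**Figure D3:**
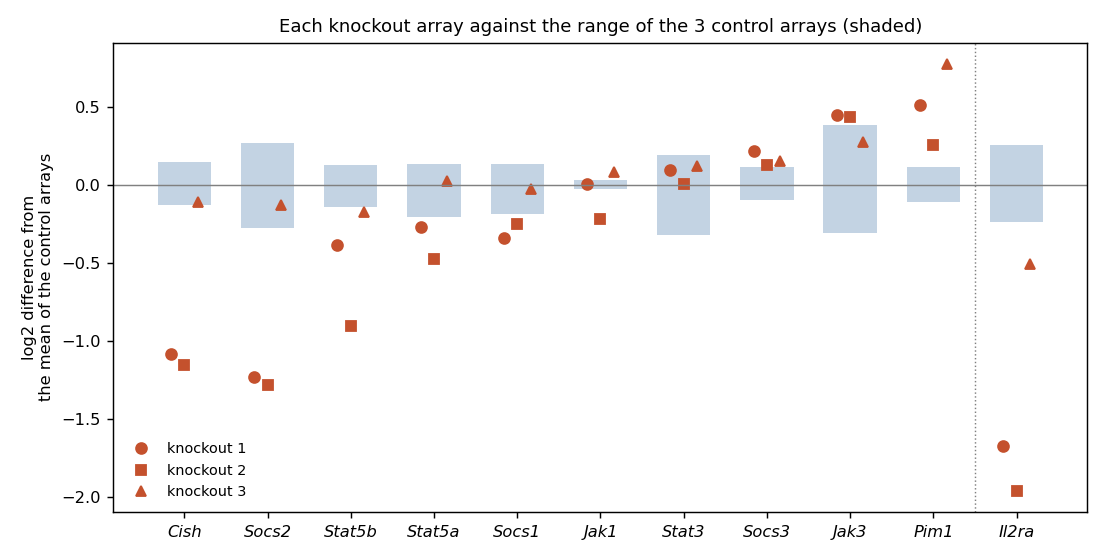
Log2 difference of each knockout array from the mean of the control arrays, with the range of the 3 control arrays shaded, for the 10 genes and, right of the dotted line, *Il2ra*. Knockout 3 (triangles) lies inside the shaded range for *Cish*, *Socs2*, *Stat5a* and *Socs1* and farthest above it for *Pim1*, at 0.77.

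The promoters of 2 inhibitors held a sequence that STAT proteins are known to bind. The motif TTCNNNGAA, which reads alike on both strands, was searched from 250 bases before to 50 bases after each annotated start in RefSeq promoters of GRCm38.p6. An entry was found for 9 of the 10 genes, all but *Socs2*, with 12 promoters in all. The motif was found in those of *Cish* and *Socs3* and in 2726 of 32851 promoters in all, or 8.3%. *Cish* held 2 matches, at bases 1 and 12 counted from its start, and at least 2 matches were found in 0.457% of all promoters. *Socs3* held 1 match at base -154. *Cish* and *Socs3* did not differ in the same direction between genotypes, with -0.78 and 0.16. A match of letters describes the sequence and shows no binding in these cells. Both promoters are given to base 30 after the start, with matches in capitals.
Cish, chr9:107296409-107296688, GRCm38.p6, plus strand: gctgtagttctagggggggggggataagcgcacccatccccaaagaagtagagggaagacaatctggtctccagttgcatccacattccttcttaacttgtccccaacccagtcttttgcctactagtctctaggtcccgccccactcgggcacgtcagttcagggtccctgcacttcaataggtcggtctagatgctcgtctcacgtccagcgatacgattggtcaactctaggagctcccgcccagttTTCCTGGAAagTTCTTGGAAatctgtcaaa
Socs3, chr11:117969337-117969616, GRCm38.p6, minus strand: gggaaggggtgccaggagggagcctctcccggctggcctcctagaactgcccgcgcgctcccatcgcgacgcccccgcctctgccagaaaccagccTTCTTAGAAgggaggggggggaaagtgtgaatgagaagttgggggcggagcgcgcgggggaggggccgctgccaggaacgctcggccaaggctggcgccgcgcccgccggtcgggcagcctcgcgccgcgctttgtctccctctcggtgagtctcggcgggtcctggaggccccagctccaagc

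Upstream of the kinases stand the receptors that use the common γ chain, of which 7 of 8 could be tested. *Il2rb*, the β chain that IL-2 and IL-15 share, had levels of -2.02, -2.51 and -2.64 in control and -0.83, -1.01 and -1.02 in knockout. It was higher on all 3 knockout arrays, with a difference of 1.44 (SE 0.19, limma adjusted P = 0.065), and passed the 2-fold thresholds, whereas *Il2ra* passed them in the other direction. With normexp the *Il2rb* difference was 0.95 scaled to the 75th percentile and 0.59 after quantile normalization, both under 2-fold. NK and T cells are known to express *Il2rb*. The 7 NK cell markers, of which 3 could be tested, summed to 2.34 to 2.48 times the 75th percentile in control and 3.05 to 5.35 times in knockout, without overlap. *Nkg7* had the highest signal of the list, with levels of 0.70, 0.87 and 0.84 in control and 1.19, 2.10 and 2.12 in knockout. It was the 1 tested marker without overlap, and *Prf1* and *Gzma* overlapped. *Ncr1*, *Klrb1c*, *Klrk1* and *Klra8* were not well above background on any array. The part of NK and T cells in the *Il2rb* difference was not tested. *Il9r*, the IL-9 receptor, was 0.65 higher (SE 0.18, limma adjusted P = 0.123) with no overlap. *Il2rg*, the common γ chain itself, differed by -0.31 and *Il4ra* by -0.052, both with overlap.

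Of 5 other JAK and STAT genes, none passed the 2-fold thresholds and none had an unadjusted limma P under 0.05, with 2 higher and 3 lower on average. *Stat4*, the transducer of IL-12 signals, had the highest difference at 0.26 with overlap (SE 0.21, limma adjusted P = 0.431). *Tyk2*, a JAK kinase of interferon and IL-12 family receptors, had the lowest difference at -0.47 (SE 0.27, limma adjusted P = 0.286). With 1 array left out, the *Tyk2* difference ran from -0.72 without control 1 to -0.18 without control 2.

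Among the 6 other SOCS and PIM genes, *Socs4* was 0.38 higher with no overlap (SE 0.15, limma adjusted P = 0.178) and the other 5 were lower on average, down to -0.40 for *Socs6* (SE 0.20, limma adjusted P = 0.252), which was well above background on 2 of the 3 knockout arrays. *Socs6* turned to 0.26 with normexp and the 75th percentile and was -0.28 with normexp and quantile normalization. *Pim2* and *Pim3*, the relatives of *Pim1*, differed by -0.18 and -0.29 with overlap, so that *Pim1* was the 1 PIM gene with no overlap between genotypes. The difference between the PIM genes was not tested. Of the 15 phosphatases, PIAS proteins and adaptors, 13 were lower on average, with a median of -0.17. *Ptpn2*, a phosphatase that removes phosphate from JAK and STAT proteins, had the lowest difference at -0.55 with no overlap (SE 0.16, limma adjusted P = 0.130), and *Cblb*, a ubiquitin ligase, had the highest at 0.38 (limma adjusted P = 0.248).

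Downstream, 13 of 14 other known STAT5 target genes could be tested, with 5 higher and 8 lower on average and a median of -0.11, against -0.12 over all genes. *Lta*, encoding lymphotoxin α, was 1.02 higher (SE 0.32, limma adjusted P = 0.136) and passed the 2-fold thresholds, with no overlap. It stayed under 2-fold with quantile normalization and in the deposited values (0.98 in each), with normexp (0.66 and 0.75), without control 2 (0.70) and without knockout 1 (0.83). *Ccnd3*, a cyclin of the G1 phase, was lowest at -0.64 (SE 0.22, limma adjusted P = 0.153), and *Bcl6* also had an unadjusted P under 0.05 and was lower. The list was not sorted by whether STAT5 raises or lowers a gene, so its counts and median give no direction of STAT5 activity. *Bcl2* and *Mcl1*, which protect from apoptosis, differed by 0.11 and -0.11 with overlap.

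Of 9 tested STAT3 target genes, 2 were higher and 7 lower on average, with a median of -0.33. *Il6st*, encoding the gp130 receptor chain, was lowest at -0.80 with no overlap (SE 0.25, limma adjusted P = 0.133), and *Il10* was highest at 0.54 (SE 0.20, limma adjusted P = 0.166).

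Over these 6 lists, 55 of 58 genes could be tested. Of these, 4 (*Socs6*, *Pias3*, *Gab2* and *Dusp5*) were well above background on all 3 control arrays but not on all 3 knockout arrays. They were thus tested through the control group alone, and their lower values in knockout are no evidence of a difference. All 4 are nevertheless included in the counts and medians given for their lists and below, on the lower side. None had a limma adjusted P under 0.05, and 13 had an unadjusted P under 0.05, 5 of them higher and 8 lower, *Dusp5* among the latter. The 2-fold thresholds were passed by 3 of the 55, against 3.52% of all genes. At 25.1% of all genes with an unadjusted P under 0.05, the lists did not stand out by their number of calls.

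**Figure D4:**
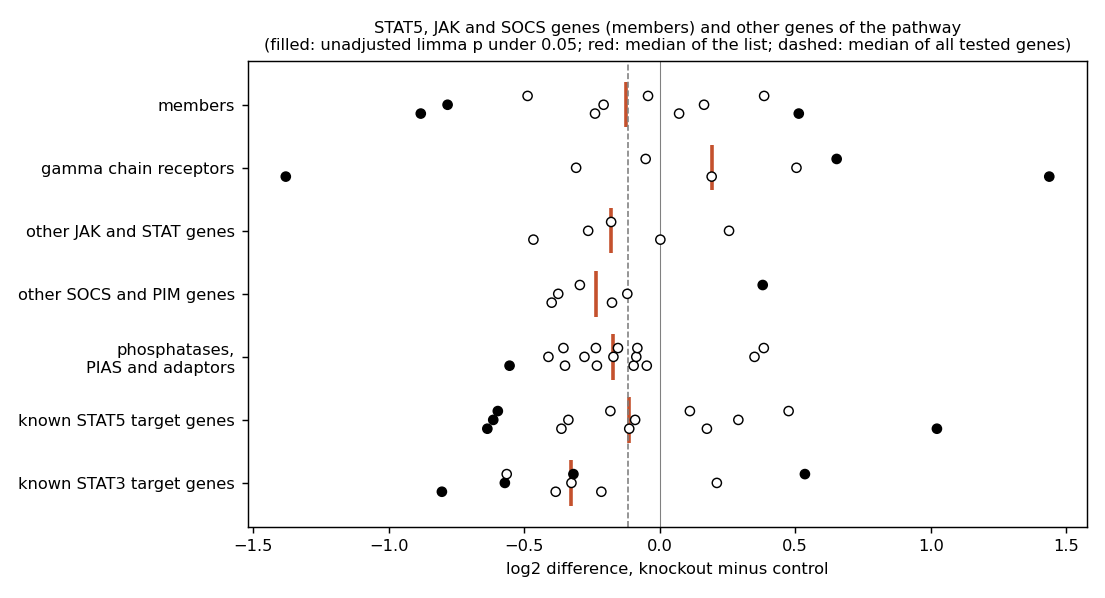
Log2 difference between genotypes for the 10 genes (top row, members) and 6 lists of other pathway genes; filled points have an unadjusted limma P under 0.05, the red line is the median of the list and the dashed line the median of all tested genes at -0.12. List medians run from -0.33 for STAT3 targets to 0.19 for the γ chain receptors, and *Il2rb* at 1.44 and *Il2ra* at -1.38 lie farthest out.

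The genes whose levels over the 6 arrays were most like those of *Pim1* and *Cish*, among 9672 genes well above background on all arrays, were *Tada2b*, *Ube3a* and *Syt11* for *Pim1* (Pearson r = 0.998, 0.994 and 0.987) and *Fdxacb1*, *Med8* and *Itsn2* for *Cish* (r = 0.994, 0.994 and 0.993). With 6 arrays in 2 groups, and the best of so many genes taken, such values describe the ranking alone.

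The differences of *Stat5a*, *Stat5b*, *Cish*, *Socs1*, *Socs2*, *Jak3* by its brighter probe, and *Pim1* kept their direction under all the alternatives of scaling, background correction, filters, probe choice and arrays left out. *Cish* ranged from -1.12 to -0.59, *Socs2* from -1.26 to -0.51, *Stat5b* from -0.75 to -0.28 and *Pim1* from 0.22 to 0.71.

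**Figure D5:**
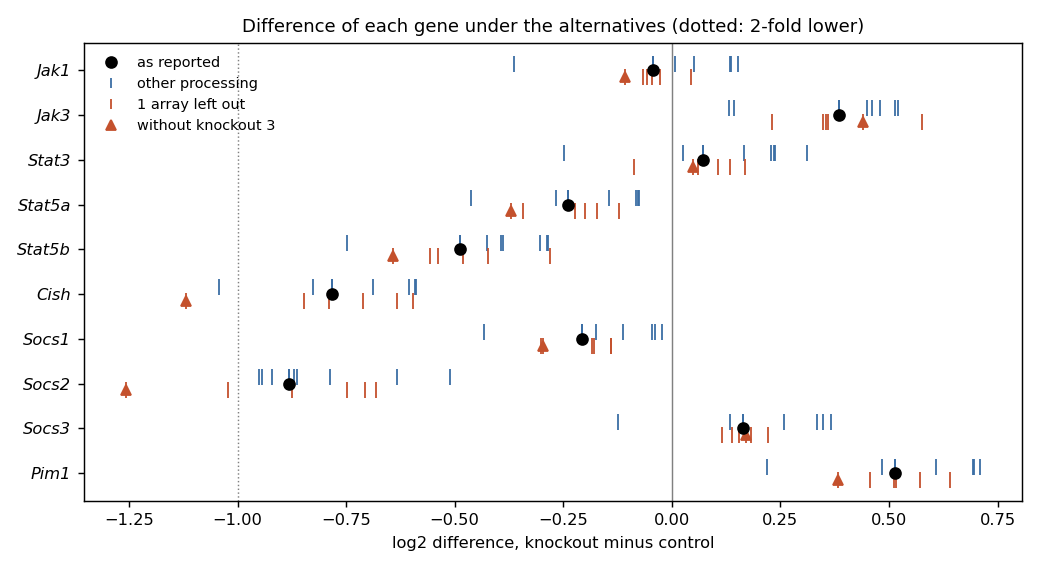
Log2 difference between genotypes for each gene as reported (black), under other processing (blue) and with 1 array left out (red; triangles without knockout 3). *Cish* and *Socs2* without knockout 3, at -1.12 and -1.26, lie past 2-fold, and *Jak1*, *Stat3* and *Socs3* have points on both sides of 0.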

How the data were processed

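PC B1a cell RNA of 3 control and 3 knockout samples was hybridised as Cy3-labelled cRNA to 1-colour Agilent arrays. The authors deposited intensity values from Feature Extraction 10.7.1.1, background subtracted and unscaled, and log2 values, which proved to be quantile normalized across the 6 arrays. The precision is limited by the number of arrays.

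Here the log2 processed signal was set relative to the 75th percentile of the 59305 non-control spots of its array, outlier spots (163 to 251 an array) were left out and replicate spots averaged. Testing was limited to probes that the scanner software marked well above background throughout 1 genotype or both, with 2 or more arrays of each genotype measured. The brightest tested probe stood for its gene. limma 3.58.1 in R 4.3.3 was fitted over 18252 genes (24751 probes), with P values adjusted by Benjamini-Hochberg over all of them, and the calculation was tested on simulated data. In each list, genes past the 2-fold thresholds or the adjusted P and those with the highest and lowest difference were named; the other list genes named were chosen after their values were seen. For *Pim1* and *Cish*, the 2 with the smallest P, the 3 genes of highest correlation were named.

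The genes and lists were chosen with earlier results of these data known. All arrays were on 1 slide with 1 scan. Alternatives were quantile normalization, normexp background correction, a median scale, the deposited log2 values, other filters, probe rules and variance models, array weights, a replicate block and leaving out each array. The smallest exact permutation P for 3 against 3 samples is 0.1, so none is given. Some genes, a list and a probe sequence are not reported here.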

Additional observations from a re-analysis of the deposited data

How the results depend on the processing

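As reported, no gene of the 10 passed the 2-fold thresholds. After normexp correction of the background, scaled to the 75th percentile, 1 passed, *Cish*, and with 1 array left out the count ran from 0 to 2, with *Socs2* alone passing without control 3 and *Cish* and *Socs2* without knockout 3. Over all genes, 733 passed without control 3 and 1148 without knockout 3, against 643 as reported. The count with a limma adjusted P under 0.05 was 0 as reported and with any 1 array left out. It was 2 with normexp and the 75th percentile, *Cish* at 0.0096 and *Stat5b* at 0.021, and 2 with array weights, *Cish* at 0.038 and *Pim1* at 0.035. These settings called 6436 and 4186 of 18252 genes, against 7 as reported and 22 with the deposited values, and the cause was not tested. The number of genes with no overlap was 3, with 2 higher and 1 lower in knockout. It was 2, without *Stat5b*, with quantile normalization, normexp and quantile normalization, a median scale and the deposited values, and 3 with normexp and the 75th percentile, where 0 were higher and *Jak1*, *Stat5b* and *Cish* were lower. All genes without overlap were 30.4 to 33.5% in the former settings and 56.2% in the latter. It ran from 3 to 8 with 1 array left out, where groups of 2 overlap less often, reaching 8 without knockout 3 and 6 without control 2 or control 3. The share of all genes with no overlap was 52.5%, 47.3% and 40.6% in these settings, against 36.3% as reported. The count with an unadjusted P under 0.05, 3 as reported, was 0 without control 1 and 1 without control 2 (*Jak3*), knockout 1 or knockout 2 (*Pim1* in both), where 18.1%, 17.7%, 20.5% and 21.4% of all genes were called. It was 4 with quantile normalization and the deposited values (20.2% and 20.3%), and 5 with normexp and quantile normalization (21.4%), normexp and the 75th percentile (50.9%) and array weights (42.1%).

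*Jak1* turned from -0.043 to 0.15 with quantile normalization, 0.14 with normexp and quantile normalization, 0.052 with a median scale, 0.13 with the deposited values, 0.0066 with array weights and 0.045 without knockout 2, within a range of -0.11 to 0.045 with 1 array left out. *Stat3* turned to -0.25 with normexp and the 75th percentile and to -0.088 without control 2, the lowest of a range up to 0.17 with 1 array left out, and *Socs3* turned to -0.12 and *Socs6* to 0.26 with that normexp setting. The second *Jak3* probe turned to 0.18 with array weights, 0.38 without control 2 and 0.06 without knockout 3, and ran from -0.50 to 0.38 with 1 array left out. The cause of these turns was not tested.

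Same-numbered control and knockout arrays correlated at 0.19, 0.056 and 0.094 in their deviations from the group means, and arrays of unlike number at -0.19 to 0.067. These values do not decide whether the numbers pair the samples, and the reported fit is unpaired. With a replicate block, 0 of the 10 genes passed the 2-fold thresholds, 0 the adjusted P, and 3 did not overlap. *Socs2* then no longer had an unadjusted P under 0.05, while *Stat5b* did, and 4 genes of all tested had an adjusted P under 0.05.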
